A study of Arabidopsis thaliana with 6 samples.

Results

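The LCR and SCRL genes of Arabidopsis thaliana encode small cysteine-rich peptides, and the members described here were all genes whose current symbol is LCR or SCRL followed by a number only. Of 109 such genes in the RefSeq annotation of TAIR10.1 (81 LCR and 28 SCRL, 2 of them pseudogenes), 75 had a probe set naming that gene alone, 63 LCR and 12 SCRL genes. They are 75 of the 16405 genes named by a tested probe set in the series, and the other 34 were not analysed here. The study compared ara6-1, a knock-out mutant of the plant-specific RAB5 GTPase gene ARA6, with the wild type (WT) in the Columbia accession, 3 biological replicates each and 1 Affymetrix array per replicate. RNA came from whole plants 14 days old, raised under continuous light at 23 °C on MS medium after a cold day at 4 °C. ara6-1 was the only mutant line, so differences that belong to the line and differences that belong to the loss of ARA6 cannot be told apart.

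LCR stands for low-molecular-weight cysteine-rich. The LCR peptides are secreted proteins related to plant defensins, whose cysteines pair into disulfide bridges that hold a compact fold. SCRL stands for SCR-like. SCR is the pollen coat peptide that the stigma receptor kinase SRK recognises in the self-incompatibility of Brassica, and the Arabidopsis SCRL genes are relatives of it. Many genes of both families are known from flowers, pollen, ovules or seeds rather than from leaves. ARA6 acts in endosomal membrane traffic, and no prediction for these peptide genes is given in the labels.

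Each array gave a linear intensity per probe set, with array medians of 28.8 to 29.2 over 28501 tested probe sets, and levels below are log2 of it. ARA6 itself (AT3G54840) stood at 6.98, 7.15 and 6.89 on the log2 scale in ara6-1 replicates 1 to 3, against 7.99, 8.40 and 8.34 in WT replicates 1 to 3, and the groups did not overlap, though ARA6 itself missed the threshold (limma, adjusted p = 0.14). Its signal in ara6-1 still lay above the log2 medians of those arrays, 4.85 to 4.87, so these values do not show a loss of the transcript. The arrays of ara6-1 replicate 1 and WT replicate 3 were the most divergent: the SD of each array's log2 deviations from its group's mean, taken over the brighter probe sets, was 0.165 and 0.169 for this pair and 0.120 to 0.126 for the other 4. The p-values below measure the spread between these arrays. In whole plants, fewer cells of a type and less RNA per cell cannot be told apart. Probe sets bind with different strength, so a percentile says where a signal lay on the array and not how much transcript one gene made against another.

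Most of these peptide genes gave dim signals in ara6-1 and in WT alike. The median member had a mean log2 intensity of 1.72, at percentile 6.42 of all tested probe sets, against a median of 4.85 over all probe sets and 4.37 over the 16405 genes. Of the 75 members, 66 (88.0%) lay in the dimmest 25% of probe sets, 48 in the dimmest 10% and 32 in the dimmest 5%, while 29.9%, 12.3% and 6.25% of the 16405 genes did. The 9 brighter members were LCR69, LCR68, LCR39, SCRL20, LCR37, LCR40, LCR20, LCR73 and SCRL26, and only the first 3 of these lay above the median. Between 63 and 67 members fell under the 25th percentile of their own array on each of the 6 arrays, an intensity of 7.1 to 7.4 in ara6-1 and 7.3 to 7.8 in WT. The 12 SCRL genes had a median level of 1.84 and the 63 LCR genes 1.72. The file gives no detection call, so these values are low signals, and whether a transcript was present was not tested.

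**Figure D1:**
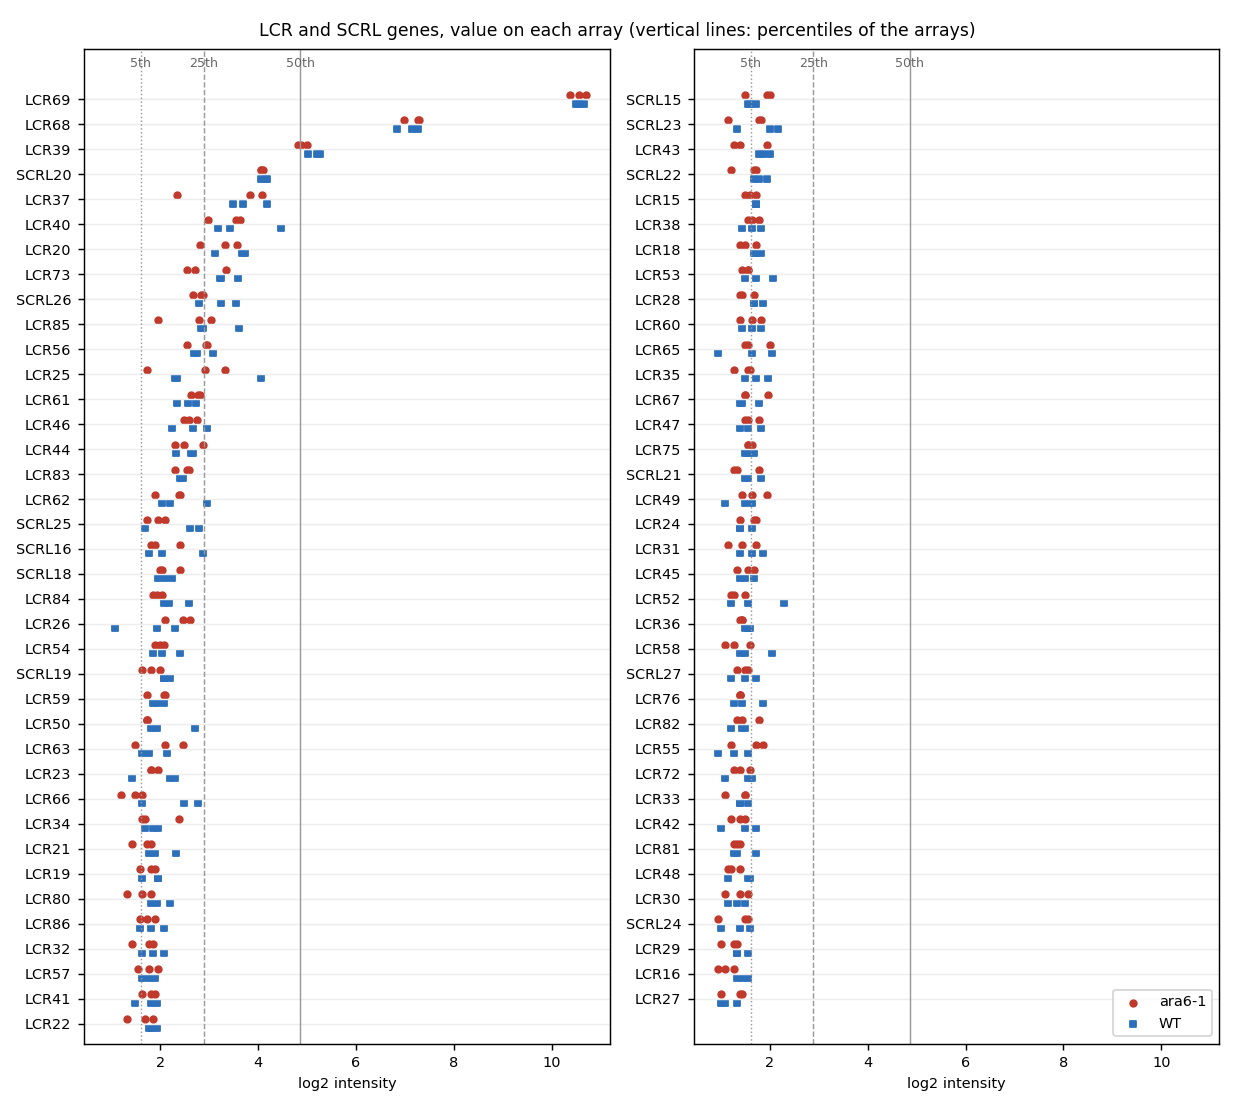
Log2 intensity (x axis) of each of the 75 LCR and SCRL genes on every array, with ara6-1 as red circles above and WT as blue squares below in each row, sorted by mean level from the top of the left panel to the foot of the right panel. Vertical lines mark the mean 5th, 25th and 50th percentile of the arrays; LCR69, LCR68 and LCR39 are the members with means above the 50th percentile, and 66 members lie in the dimmest 25% of probe sets.

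The brightest members were annotated defensins. LCR69 (AT2G02100, also named PDF2.2), a plant defensin gene, had log2 intensities of 10.70, 10.37 and 10.56 in ara6-1 replicates 1 to 3, against 10.49, 10.56 and 10.67 in WT replicates 1 to 3. The groups overlapped, with ara6-1 holding both the highest and the lowest array. It averaged 10.54 ± 0.16 in ara6-1 and 10.57 ± 0.09 in WT (SD, n = 3 each), at percentile 98.8 of all probe sets. The log2 fold change was -0.03 with a 95% interval of -0.30 to 0.25 (limma, adjusted p = 0.952).

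LCR68 (AT2G02130, also named PDF2.3), a defensin gene in the same genomic neighbourhood whose peptide is known to act against fungi, had log2 intensities of 6.99, 7.27 and 7.29 in ara6-1, against 7.26, 7.15 and 6.83 in WT. The lowest array of each group was one of the 2 most divergent, ara6-1 replicate 1 and WT replicate 3. The means were 7.18 ± 0.17 in ara6-1 and 7.08 ± 0.22 in WT (SD, n = 3 each), apart by 0.11 with a 95% interval of -0.24 to 0.45 (limma, adjusted p = 0.835). Neither defensin gene differed by more than its replicates, and both intervals leave out a 1.5-fold change in either direction.

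LCR39 (AT3G23167) was the member with a signal near the middle of the arrays, at percentile 52.5. Its log2 intensity was 4.81, 4.88 and 5.0 in ara6-1, against 5.21, 5.27 and 5.02 in WT, so all ara6-1 arrays lay under all WT arrays, though the highest ara6-1 value and the lowest WT value were nearly equal. The means were 4.90 ± 0.09 in ara6-1 and 5.17 ± 0.13 in WT (SD, n = 3 each). The difference of -0.27 in log2 (SE 0.11, unadjusted p = 0.0400 in limma) missed the threshold over all probe sets (limma, adjusted p = 0.552). LCR39 was one of 2 members, with LCR16, that stayed without overlap and lower in ara6-1 after the arrays were quantile-normalized again. In that setting 2090 of all 28501 probe sets were lower without overlap, and LCR61 was higher without overlap.

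SCRL20 (AT4G10115) was the brightest SCR-like gene and one of the steadiest members. It had log2 intensities of 4.1, 4.05 and 4.05 in ara6-1, against 4.05, 4.16 and 4.18 in WT, at percentile 40.5. Its log2 fold change was -0.06 with a 95% interval of -0.28 to 0.15 (limma, adjusted p = 0.841). The linear intensities behind it ran from 16.6 to 17.1 in ara6-1 and from 16.6 to 18.1 in WT.

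The next members in brightness varied with single arrays. LCR37 (AT4G13095) had log2 intensities of 2.35, 4.07 and 3.83 in ara6-1, against 3.70, 3.49 and 4.19 in WT, with ara6-1 replicate 1 far under the rest. ara6-1 minus WT was -0.37 in log2 (limma, adjusted p = 0.802), and 0.16 without that array. LCR40 (AT2G14935) had 2.98, 3.55 and 3.62 in ara6-1, against 3.42, 3.17 and 4.47 in WT, with WT replicate 3 far above the rest. Here ara6-1 minus WT was -0.30 in log2 (limma, adjusted p = 0.799), and 0.09 without that array. LCR25 (AT4G29305), the member with the widest spread, had SDs of 0.83 in ara6-1 and 1.01 in WT, with values from 1.72 to 3.32 in ara6-1 and from 2.29 to 4.06 in WT. The difference of -0.25 in log2 had a 95% interval of -1.57 to 1.07 (limma, adjusted p = 0.904), and without WT replicate 3 it was 0.33. In these 3 genes leaving out a single array turned the sign of the difference.

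Of the 75 members, 0 passed the threshold (limma, adjusted p of 0.05, Benjamini-Hochberg), against 0.0105% of all 28501 probe sets. The members' adjusted p ran from 0.532 to 0.997. At an unadjusted p under 0.05 in limma there were 5 members, LCR66, LCR16, LCR39, SCRL19 and LCR80, or 6.67%, against 9.01% of all probe sets. All 5 were lower in ara6-1, against 5.39% of all probe sets with an unadjusted p under 0.05 in that direction. As a share, the members' 5 calls did not exceed the background over both directions and were near it in this one. The moderated 95% intervals had a median half-width of 0.36 on the log2 scale for the members and 0.31 for all probe sets.

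In 6 members (8.0%) the arrays of the 2 genotypes did not overlap, LCR39, LCR84, SCRL19, LCR50, LCR36 and LCR16, against 15.7% of all tested probe sets. All 6 were lower in ara6-1, and 7.85% of all probe sets did not overlap in that direction. None of the 6 reached a 1.5-fold difference, while 0.968% of all probe sets were 1.5-fold apart without overlap. These 6 were named after their values had been seen. For each of them, the smallest two-sided p that an exact permutation test of 3 arrays against 3 allows is 0.10.

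Other than LCR39, these 6 had signals at or under percentile 13.1, where the file's step of 0.1 in linear intensity is a visible part of each difference. LCR16 (AT1G49435) had intensities of 1.9 to 2.4 in ara6-1, against 2.5 to 2.9 in WT, at percentile 0.586, a difference of -0.34 in log2 with SE 0.12 (limma, adjusted p = 0.541). LCR36 (AT4G09153) had 2.6 to 2.7 in ara6-1, against 2.8 to 3.0 in WT, so 1 step of the table lay between the groups. The difference was -0.12 in log2 (limma, adjusted p = 0.695).

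LCR50 (AT2G12465) read 3.3 on all 3 ara6-1 arrays, against 3.5 to 6.5 in WT, where WT replicate 2 was the high one. Its log2 fold change was -0.42 with a 95% interval of -0.95 to 0.10 (limma, adjusted p = 0.608), and without that array -0.14. LCR84 (AT2G14365) had intensities of 3.6 to 4.1 in ara6-1 and 4.2 to 6.0 in WT, and the SCR-like gene SCRL19 (AT3G27503) 3.1 to 4.0 in ara6-1 and 4.2 to 4.6 in WT. They differed by -0.34 and -0.30 in log2 (limma, adjusted p = 0.564 and 0.552), and LCR84 by -0.18 without WT replicate 3. In LCR50, LCR84 and SCRL19 the nearest arrays of the 2 genotypes were 1 or 2 steps of the file apart.

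**Figure D2:**
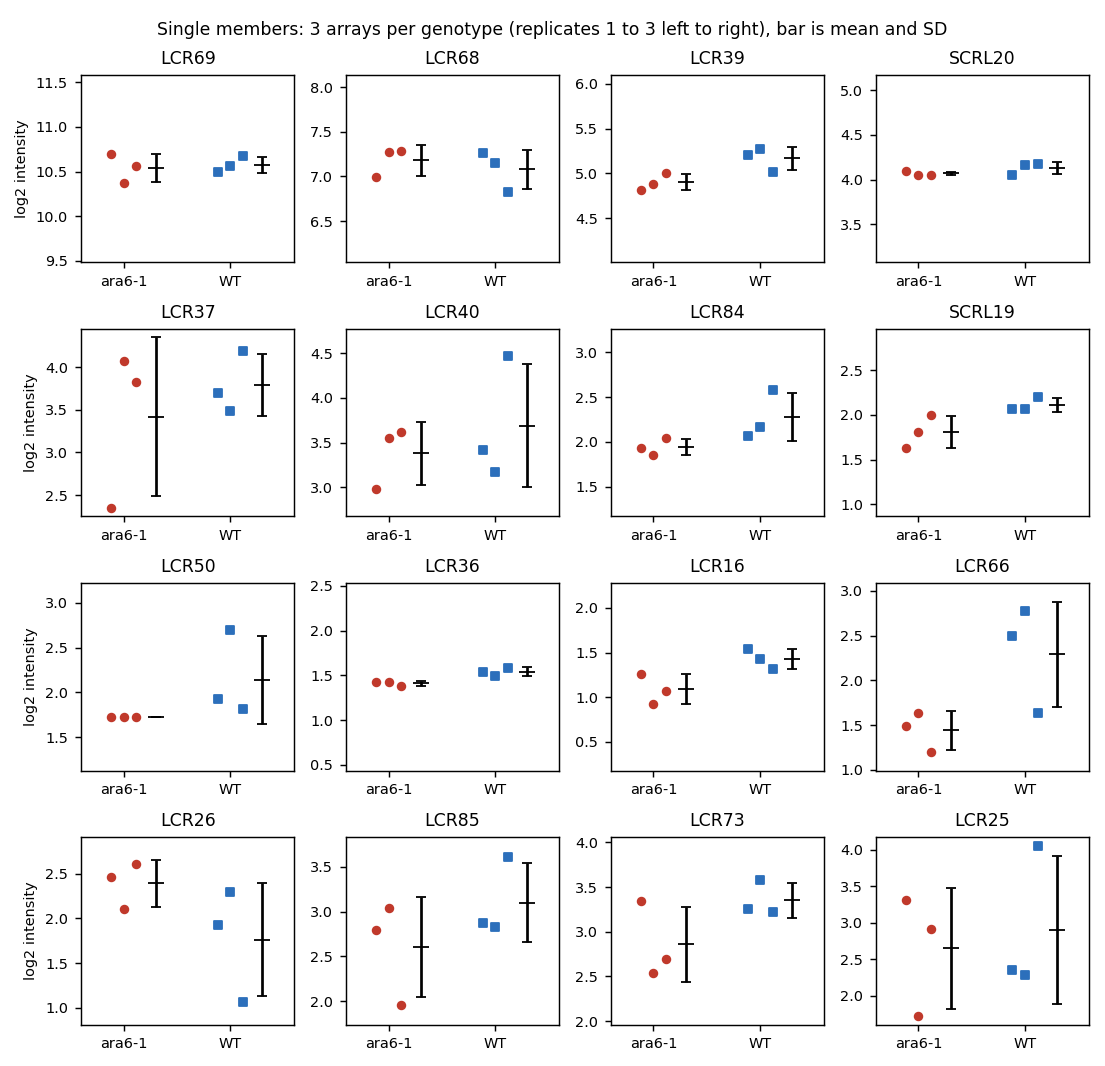
Log2 intensity (y axis, a panel per gene with its own range) of 16 members, with the 3 ara6-1 arrays as red circles on the left and the 3 WT arrays as blue squares on the right, and the group mean ± SD as a bar beside the points. The means of LCR69 differ by 0.03, LCR39 shows all ara6-1 arrays under all WT arrays, and LCR37, LCR40 and LCR25 show single arrays far from their group.

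Among the members with the largest negative differences, LCR66 (AT1G61070, also named PDF2.4), an annotated defensin gene, came first. Its log2 intensity was 1.49, 1.63 and 1.2 in ara6-1, against 2.49, 2.77 and 1.63 in WT. WT replicates 1 and 2 lay above all ara6-1 arrays, and WT replicate 3 equalled ara6-1 replicate 2 at an intensity of 3.1, so the groups touched. The means were 1.44 ± 0.22 in ara6-1 and 2.29 ± 0.59 in WT (SD, n = 3 each), apart by -0.85 with a 95% interval of -1.52 to -0.19 (limma, unadjusted p = 0.0182 and adjusted p = 0.532). The ara6-1 intensities of 2.3 to 3.1 compare with 5th percentiles of 2.9 to 3.0 on those arrays, and the lowest, on replicate 3, lay at percentile 0.94. LCR80 (AT5G38330), the remaining member with an unadjusted p under 0.05, had 2.5 to 3.5 in ara6-1 and 3.5 to 4.6 in WT, so its groups touched as well (limma, adjusted p = 0.552). LCR67 (AT1G75830, also named PDF1.1), a defensin gene known from seeds, had 2.8 to 3.9 in ara6-1 and 2.6 to 3.4 in WT (limma, adjusted p = 0.841).

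The other members with large negative values overlapped between the genotypes, apart from LCR50. LCR85 (AT4G22210) had log2 intensities of 2.79, 3.04 and 1.96 in ara6-1, against 2.87, 2.83 and 3.61 in WT, which differ by -0.51 in log2 means (limma, adjusted p = 0.649). LCR73 (AT2G02147) had 3.34, 2.54 and 2.70 in ara6-1, against 3.25, 3.58 and 3.22 in WT, which differ by -0.49 (limma, adjusted p = 0.562). LCR73 overlaps AT2G02148 in the annotation, and the signals of overlapping genes cannot be told apart here. The same holds for 8 of the 75 members in all, LCR73, LCR54, LCR57, LCR43, LCR60, LCR76, SCRL22 and SCRL23. SCRL25 (AT4G32714) and SCRL26 (AT4G22105) differed by -0.43 and -0.40 in log2 (limma, adjusted p = 0.662 and 0.575). For these 4 genes the 95% intervals included 0. Without 1 array LCR85 came as near to 0 as -0.19 (without ara6-1 replicate 3), SCRL25 -0.21 (without WT replicate 3) and SCRL26 -0.23 (without WT replicate 1).

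Higher values in ara6-1 were rarer and none passed a test. LCR26 (AT4G29290) had log2 intensities of 2.46, 2.10 and 2.61 in ara6-1, against 1.93, 2.29 and 1.07 in WT, with WT replicate 3 the low one. Its log2 fold change was 0.63 with a 95% interval of -0.08 to 1.34 (limma, adjusted p = 0.583). LCR26 and LCR66 were the 2 members at least 1.5-fold apart between group means (2.67%, against 1.44% of all probe sets), in opposite directions. LCR26 was at 0.28 on the log2 scale, under 1.5-fold, without WT replicate 3, and LCR66 at -1.19. The next 5 positive members were LCR55 (AT3G20997, 0.35), LCR49 (AT2G33233, 0.27), LCR61 (AT4G30064, 0.19), SCRL15 (AT2G05335, 0.19) and LCR63 (AT4G30067, 0.17) on the scale of log2 fold change. Their adjusted p ran from 0.645 to 0.846 in limma, and all 5 overlapped between the genotypes.

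As a group the members leaned towards lower values in ara6-1, and so did the dim end of the arrays. The log2 fold change was negative in 53 members (70.7%) and positive in 22, with a median of -0.11, a middle range (25th to 75th percentile) of -0.26 to 0.02 and extremes of -0.85 and 0.63. Over all tested probe sets 50.4% were negative, and over the dimmest 25% of probe sets 62.2% were, with a median of -0.06. Of the 66 members in the dimmest 25%, 45 (68.2%) were negative with a median of -0.10. Of the 9 brighter members, 8 were negative with a median of -0.27. The LCR genes had 43 of 63 negative with a median of -0.11, and the SCRL genes 10 of 12 with a median of -0.17. When the arrays were quantile-normalized again, 44 members (58.7%) were negative with a median of -0.05, while 50.6% of the dimmest 25% were. The shares are a description of 75 genes, without a test.

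**Figure D3:**
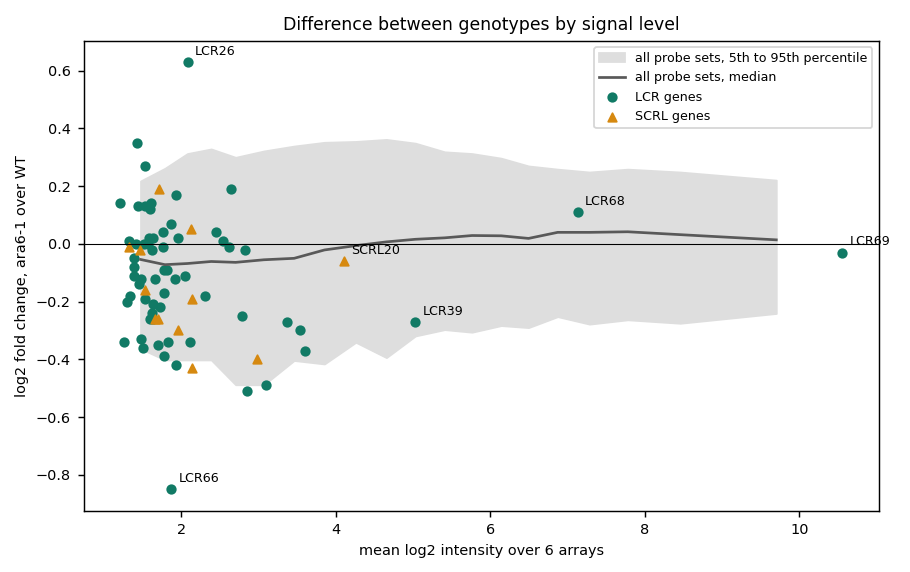
Log2 fold change of ara6-1 over WT (y axis) against mean log2 intensity over the 6 arrays (x axis) for 63 LCR genes (green circles) and 12 SCRL genes (orange triangles). The grey line and band give the median and the 5th to 95th percentile of all 28501 probe sets in 20 bins of level; the line lies under 0 at the dim end, where most members are, and LCR66 and LCR26 lie farthest from it.

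The arrays differed in where the members stood. The median deviation of the members from their own 6-array means was -0.031, -0.057 and -0.068 on the log2 scale in ara6-1 replicates 1 to 3, against 0.062, 0.016 and 0.064 in WT replicates 1 to 3. All ara6-1 arrays were thus under all WT arrays. The dimmest 25% of probe sets had median deviations of -0.015, -0.060 and -0.034 in ara6-1, against 0.052, -0.010 and 0.027 in WT, with ara6-1 replicate 1 and WT replicate 2 nearly equal. Over all probe sets the medians lay between -0.002 and 0.001. The part of the dim end in the members' lean was not tested.

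**Figure D4:**
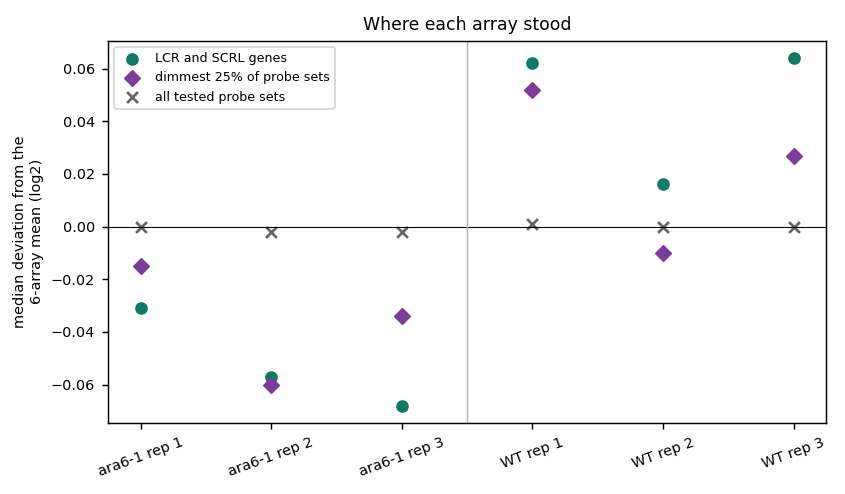
Median deviation from the 6-array mean (y axis, log2) on each array, ara6-1 replicates on the left and WT replicates on the right, for the LCR and SCRL genes (green circles), the dimmest 25% of probe sets (purple diamonds) and all tested probe sets (grey crosses). The members run from -0.068 to 0.064, and all probe sets stay within 0.002 of 0.

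Many members sit beside each other in the genome, by the order of loci in the TAIR10.1 annotation. Counting members with at most 5 other genes between them as neighbours, 38 of the 75 measured members had another annotated member beside them and 37 had none. By the chromosome in their locus names, 5 lay on chromosome 1, 20 on chromosome 2, 16 on chromosome 3, 25 on chromosome 4 and 9 on chromosome 5. In 4 groups of neighbours at least 3 members were measured.

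The group on chromosome 2 held the defensin genes LCR69, LCR68 and LCR72 (AT2G02140, also named PDF2.6) and the gene LCR73. Their mean log2 levels were 10.56, 7.13, 1.41 and 3.10, so neighbours ran from percentile 98.8 down to percentile 1.71. LCR72 had intensities of 2.4 to 3.0 in ara6-1, against 2.1 to 3.1 in WT, and equal group means of 1.41 on the log2 scale. The pseudogene LCR71 of this group was not analysed here.

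The largest group, 7 measured LCR genes from LCR23 (AT4G29273) to LCR25 on chromosome 4, had mean levels of 1.2 to 2.78. Of these 7 genes 4 had negative and 3 positive log2 fold changes, from -0.34 for LCR21 (AT4G29283) to 0.63 for LCR26. A second group on chromosome 4, with LCR61, LCR63, LCR59 (AT4G30070) and LCR19 (AT4G30074), had levels of 1.81 to 2.64 and log2 fold changes of -0.09 to 0.19. On chromosome 3, LCR52 (AT3G61175), LCR53 (AT3G61177) and LCR54 (AT3G61182), which overlaps AT3G61180, had levels of 1.5 to 2.04 and log2 fold changes of -0.36 to -0.11, all negative. LCR39 lies beside LCR42 (AT3G23165), which stood at 1.38, percentile 1.48, with a log2 fold change of -0.05. None of the differences of neighbouring members passed the threshold.

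**Figure D5:**
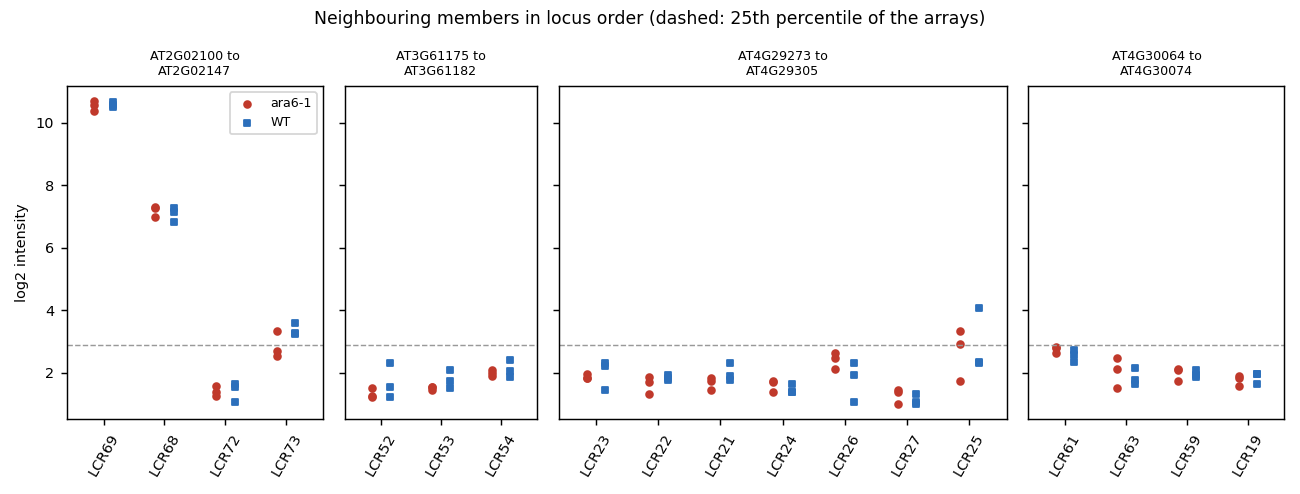
Log2 intensity (y axis) of neighbouring members in locus order (x axis) for the 4 groups with at least 3 measured members, 3 ara6-1 arrays as red circles to the left and 3 WT arrays as blue squares to the right for each gene. LCR69 and LCR68 of the first group stand far above the dashed line, the mean 25th percentile of the arrays, while the members of the other groups have means under it.

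Named defensin and thionin genes that carry other symbols stood higher on the array and also made no calls. Of 10 listed and measured genes 0 passed the threshold and 1 had an unadjusted p under 0.05 in limma, against 9.01% of all probe sets, with a median log2 fold change of -0.10 and a median percentile of 49.1. THI2.1 (AT1G72260), a thionin gene, had log2 intensities of 6.31, 6.67 and 6.11 in ara6-1, against 6.96, 6.96 and 6.55 in WT, which differ by -0.46 (limma, adjusted p = 0.549). PDF1.5 (AT1G55010) had a log2 fold change of -0.25 and PDF1.3 (AT2G26010) of 0.55. PDF1.3 had 6.52 in ara6-1 replicate 1, and 4.30 and 4.73 in the other ara6-1 arrays. The widest spreads in ara6-1 were those of PDF1.2b, PDF1.2 and PDF1.2c (SD 1.70, 1.68 and 1.46). Their highest array was also ara6-1 replicate 1, at 8.62, 7.59 and 4.29. In the rest of the list another array was highest.

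Other secreted cysteine-rich peptides had 20 of 52 listed genes measured. All of these were RALF-like (RALFL) signalling peptides or LURE pollen tube attractants. No gene of the other kinds listed was measured, so the counts cover these families only. None passed the threshold. An unadjusted p under 0.05 in limma was found for 4 of the 20, against 9.01% of all probe sets, all 4 lower in ara6-1, against 5.39%. In 5 of the 20 the genotypes did not overlap, against 15.7%, all 5 lower in ara6-1, against 7.85%. Their median log2 fold change was -0.11 and their median percentile 17, and 12 of the 20 lay in the dimmest 25% of probe sets. RALFL24 (AT3G23805) had log2 intensities of 3.57, 3.39 and 3.19 in ara6-1, against 4.23, 3.86 and 4.06 in WT, which differ by -0.67 with SE 0.14 (limma, adjusted p = 0.493). RALFL29 (AT4G11653) and RALFL32 (AT4G14010) differed by -0.64 and -0.38 in log2 (limma, adjusted p = 0.517 and 0.542).

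Of 7 receptor genes listed for SCR and LURE peptides 3 were measured, MIK1 (AT4G28650), MIK2 (AT4G08850) and MDIS1 (AT5G45840). ARK1, ARK2, ARK3 and PRK6 were not measured. None of the 3 passed the threshold or an unadjusted p under 0.05 in limma, against 9.01% of all probe sets at the latter. Their log2 fold changes lay between 0.10 and 0.31 with a median of 0.14.

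Measured leaf markers were bright in these whole plants, root markers were of upper rank, and reproductive markers were dim or of middle rank. SBPASE (AT3G55800), a Calvin cycle enzyme gene, stood at percentile 99.3, and PYK10 (AT3G09260), a root glucosidase gene, at 99.7. The other root markers, the root hair expansin genes EXPA7 (AT1G12560) and EXPA18 (AT1G62980), stood at 60.3 and 70.9. Of the 5 measured leaf and root markers, 2 had all ara6-1 arrays above all WT arrays, against 7.81% of all probe sets. These were PYK10, with a log2 fold change of 0.11, and LHCB4.1 (AT5G01530), a chlorophyll-binding protein gene at percentile 97.8, with 0.17 (limma, adjusted p = 0.727 and 0.634). SBPASE, EXPA7 and EXPA18 overlapped between the genotypes, at 0.08, 0.10 and -0.03, and the part of tissue shares in the members' values was not tested. In the pollen list 2 of 7 genes were measured, VGD1 (AT2G47040) at percentile 6.58 and MGH3 (AT1G19890), a sperm cell histone gene, at 31.6. In the ovule and embryo sac list 4 of 6 were measured, the egg cell genes EC1.1 (AT1G76750), EC1.3 (AT2G21750), EC1.5 (AT5G64720) and EC1.2 (AT2G21740), at percentiles 9.14, 32.2, 25.7 and 44.7. Their log2 fold changes lay between -0.20 and 0.08, and 0 of these 6 reproductive markers had an unadjusted p under 0.05 in limma. The floral organ and seed lists had 0 genes measured under their names, so floral tissue in these plants was not tested.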

How the data were processed

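RNA of 6 plant samples was hybridized to 1 array each. The deposited intensity values, linear and written to 1 decimal for 28501 probe sets, came from Affymetrix Expression Console 1.3 (the submitters' processing notes). How probes were summarized and which genome build was used are not given in the sources used here, and no further normalization between arrays was applied. Another 9907 rows, written with more decimals and of unknown kind, were left out. Genes were named through the platform's table and current RefSeq symbols. No member had more than 1 probe set. No sequence was available for print, and peptide sequences were not analysed here.

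Deposited intensities were turned into log2 and compared with limma 3.58.1 in R 4.3.3 (4 residual and 3.31 prior degrees of freedom; two-sided; Benjamini-Hochberg over 28501 probe sets; threshold 0.05), with no term for the replicate number. The fit was tested on simulated data with independent noise for each probe set. These data had no 0.1 step in intensity and no shift between arrays, so the test did not cover those features of dim signals. The number of arrays limits the precision. The members and lists were chosen with earlier results of these data known. Named members were those past the threshold, those apart by 1.5-fold, the 6 brightest, the 6 with the largest differences in each direction and the 3 most variable. LCR80, LCR67, the neighbours and the 6 members without overlap were added after their values were seen. Alternatives changed the scaling, the filter on dim probe sets, the variance model and the arrays used. The filter left 9 of the 75 members to test. Averaging the probe sets of a gene repeated the main fit, as no member had several. A threshold of 0.1 kept the main p-values.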

Additional observations from a re-analysis of the deposited data

How the results depend on the processing

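Under 17 alternative settings, not all able to differ, 0 tested members passed the limma threshold. The lowest adjusted p ran from 0.27 (LCR66, without WT replicate 3) to 0.804. Of 353 values of the 23 named members, 341 kept their direction, which only rescaling, array weights or left-out arrays could change. The other 12 reversed, all with arrays left out. LCR69 reversed without WT replicate 3 (0.0189) and without ara6-1 replicate 2 (range over left-out arrays -0.1074 to 0.0566), LCR68 without WT replicate 3 (-0.0192 to 0.2017), LCR40 without WT replicate 3 (0.0889) and LCR25 without WT replicate 3 or ara6-1 replicate 2 (-0.587 to 0.3288). LCR37 and LCR63 reversed without ara6-1 replicate 1 (0.1585 and -0.0502). With ara6-1 replicate 1 and WT replicate 3 both left out, a setting added after seeing the data, LCR37, LCR40, LCR49 and LCR63 reversed, and over all left-out arrays they ran from -0.7014 to 0.3562, -0.5591 to 0.2898, -0.0262 to 0.3858 and -0.09 to 0.4368. In that setting 7 of the 75 members had an unadjusted p under 0.05 in limma, against 3621 of all 28501 probe sets. In 20 members the genotypes did not overlap, 4 of them 1.5-fold apart, and the SCRL median was -0.238146. Smaller groups overlap less by construction and no share of all probe sets was counted, so the count shows no rise.

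With the dimmest 25% of probe sets left out, 9 members remained. Of these, 1 had an unadjusted p under 0.05 in limma, against 2221 of all 21376 remaining probe sets. LCR39 alone was without overlap, and the share of the remaining probe sets was not counted. The median log2 fold change was -0.274831 (over members and over LCR genes) and the median level 3.60341. Quantile normalization again gave 3 members at an unadjusted p under 0.05 in limma, against 2454 of all 28501 probe sets. It gave 3 without overlap (LCR39 and LCR16 lower, LCR61 higher), against 2090 lower and 2207 higher of all probe sets. The medians were -0.0501429 over members and -0.0455205 over LCR genes. Centring the arrays on their medians gave 1 member without overlap and 1.5-fold apart (LCR66). The count at an unadjusted p under 0.05 in limma was 2 with a prior variance that follows intensity, against 2907 of all 28501 probe sets. It was 3 without moderation, against 2556, and 2 over all rows of the table, against 2888 of 38408. Leaving out 1 array at a time gave 2 to 6 members at an unadjusted p under 0.05 in limma, against 1740 to 3234 of all 28501 probe sets. It gave 10 to 16 members without overlap, 0 to 3 of them 1.5-fold apart, again with no share counted. The medians were -0.145698 to -0.0753595 over members, -0.144211 to -0.0753595 over LCR genes and -0.217443 to -0.0757035 over SCRL genes. The level was 1.70535 to 1.76051. For changes with left-out arrays or another scaling, the cause was not tested.

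Over the brighter probe sets, deviations of same-numbered arrays correlated at -0.196, 0.174 and -0.15, too few values to show whether the numbers pair samples. With the replicate block 0 members passed the threshold and 6 had an unadjusted p under 0.05 in limma, against 2276 of all 28501 probe sets.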

Other observations

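The members measured here were the higher-numbered genes of both families. Of the 81 annotated LCR and SCRL genes numbered 15 or more, 75 were measured, and the 28 numbered 1 to 14 were not analysed here.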
